A study of Mus musculus with 24 samples.

Results

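S100, annexin, galectin, vimentin and lamin A genes were followed as a group of 10 in marrow T cells of mice whose bone marrow fails under immune attack. The members are S100a4, S100a6, S100a10, S100a11, Anxa1, Anxa2, Lgals1, Lgals3, Vim and Lmna, taken by gene symbol from the 24421 genes of the read count table. They are treated as chosen on their measured values in the CD8 comparison of ruxolitinib plus cyclosporine with no drug, so CD8 comparisons with untreated mice are given as description with no test. Which comparison was used to choose them is not recorded, and the p-values below hold only if the libraries tested played no part in the choice. All 10 were found and all 10 passed the filter on low counts in every fit.

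The libraries hold RNA of flow-sorted T cells, CD8 or CD4, of female CByB6F1 mice, a hybrid strain, aged 2 to 5 months. In this model of bone marrow failure, labelled BMF, T cells attack the marrow, and every mouse of the study carried the disease. The mice received ruxolitinib with cyclosporine (RUX+CSA), cyclosporine alone (CSA), ruxolitinib alone (RUX) or neither drug (untreated), and the ruxolitinib dose is called low by the submitters. Ruxolitinib blocks JAK kinases, which carry cytokine signals, and cyclosporine blocks calcineurin, the phosphatase that activates NFAT after T cell receptor stimulation. Each of the 8 groups of cell type and treatment had 3 pools of 2 to 3 mice, numbered 1 to 12 for CD8 and 13 to 24 for CD4. The p-values measure the spread between such pools, and all pools were treated as separate. Whether CD8 and CD4 pools came from the same mice is not shown by these numbers. If they did, the CD4 tests are not independent of the CD8 values used in the choice. The tests of CD8 against CD4 cells would then leave out a pairing.

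S100 proteins are small calcium sensors that bind partner proteins, and annexins are calcium-dependent binders of membrane phospholipids. Some work as pairs: S100a10 binds Anxa2 and S100a11 binds Anxa1. Galectins bind galactose-bearing sugars on cell surfaces, vimentin forms intermediate filaments, and lamin A/C, the product of Lmna, forms part of the nuclear lamina. In T cells most of these genes are known to be more active in memory and effector cells than in naive cells, and lamin A/C is known to appear after T cell activation.

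The libraries held 16912085 to 34550183 read pairs counted to genes, and 3 read pairs corresponded to 0.0868 to 0.177 CPM (read pairs scaled to a common library size), a floor that covers counting error only. The lowest member count was 23 read pairs, for Lmna, and the other 9 members had at least 346 in every library. The sort labels held: markers of CD4 cells summed to 0.749 to 6.78 CPM in CD8 libraries and to 1289 to 1913 CPM in CD4 libraries. Summed neutrophil markers were 12.7 CPM in the CD8 library untreated 2 and 96.2 CPM in the CD4 library untreated 14, where 13 and 10 of the 18 markers were at 0, against 396 to 12355 CPM in the other 22 libraries. In bulk RNA, a smaller number of cells of a type and less RNA per cell cannot be told apart. The CD8 libraries CSA 6 and RUX 7 stood apart from the other libraries of their own groups, as the values of Lmna below show, and the values they move most are also given without them. In NK cell markers, CSA 6 had a sum of 453 CPM, against 439.8 and 469.99 CPM in RUX 8 and RUX 9, and RUX 7 had 1015 CPM, against 929 and 1060.05 CPM in CSA 4 and CSA 5. Whether the labels of CSA 6 and RUX 7 were exchanged was not tested, and each CD8 value for CSA or RUX alone holds only for the labels as given.

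Per kilobase of exon, the members other than Lmna were among the more strongly expressed genes of these T cells, and Lmna was far below them. Lgals1 led in CD8 cells with a mean of 1227 CPM per kb, rank 17 of all genes, and in CD4 cells it had 976 CPM per kb, rank 34. S100a11 had 769.9 CPM per kb in CD8 and 1062 CPM per kb in CD4 libraries, rank 39 and rank 28. S100a10, S100a4, S100a6 and Anxa2 averaged 746, 712, 678 and 617 CPM per kb in CD8 libraries, and 899.6, 831, 611 and 521 CPM per kb in CD4 libraries. Vim averaged 297 CPM per kb in CD8 and 281 CPM per kb in CD4 libraries (rank 201 and rank 212), and Lgals3 251 and 220.4 CPM per kb (rank 264 and rank 298). Anxa1 averaged 156 CPM per kb in CD8 libraries and 434 CPM per kb in CD4 libraries, rank 486 and rank 116. Lmna averaged 4.25 CPM per kb in CD8 and 7.49 CPM per kb in CD4 libraries, rank 8319 and rank 7153.

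**Figure D1:**
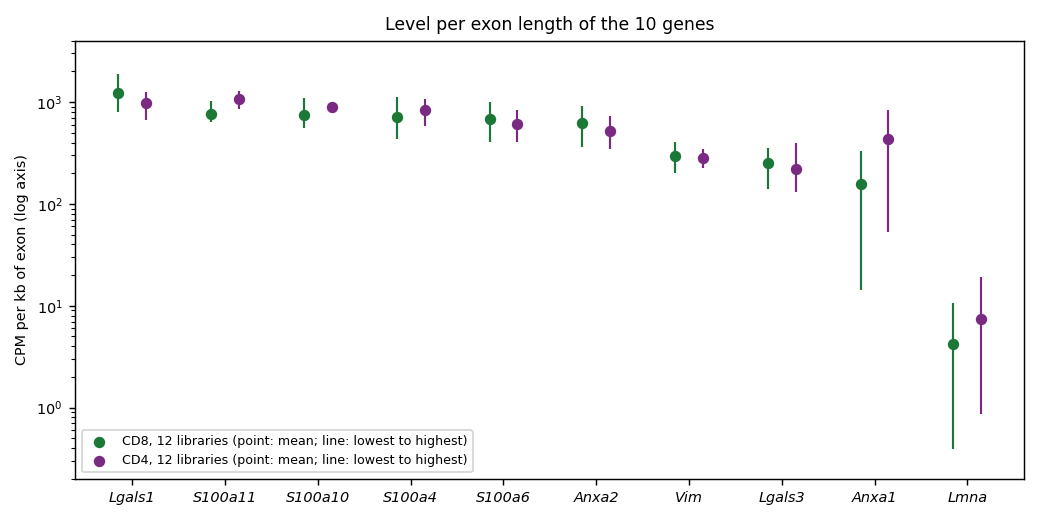
Mean CPM per kb of exon (log axis) of the 10 genes in 12 CD8 and 12 CD4 libraries, with lines from the lowest to the highest library. Lgals1 is at 1227 CPM per kb in CD8 and 976 CPM per kb in CD4 libraries, Lmna is at 4.25 and 7.49 CPM per kb, and Anxa1 has the longest lines of the other 9 genes.

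In CD4 cells, 6 of the 10 genes rose in the pools given cyclosporine, taken with and without ruxolitinib together, and none fell. The 6 were Lmna, Lgals3, S100a6, Lgals1, S100a4 and Anxa2. This question was asked of the 6 CD4 pools that received CSA, alone or with RUX, against the 6 that did not (RUX alone and untreated). Of 13175 genes tested, 7.16% were called at a Benjamini-Hochberg adjusted p under 0.05 (496 higher and 447 lower), by edgeR's quasi-likelihood test. The members' median log2 fold change was 0.50, against -0.01 over all genes tested.

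Lmna had the largest difference of the 10. It measured 64.6, 39.0 and 44.6 CPM in RUX+CSA pools, 34.9, 33.3 and 48.4 CPM in CSA pools, 6.92, 4.53 and 5.13 CPM in RUX pools, and 2.90, 9.63 and 8.06 CPM in untreated pools. The lowest pool with CSA was above the highest pool without it. The mean was 44.1 ± 11.5 CPM with CSA and 6.19 ± 2.47 CPM without CSA (SD, n = 6 each), a 7.12-fold difference (log2 2.83, SE 0.27, adjusted p = 0.000152 by edgeR). Leaving out each library in turn kept the log2 difference between 2.64 and 3.00.

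Both galectins of the group rose. Lgals3, which encodes galectin-3, a galectin abundant in macrophages and in some activated lymphocytes, measured 343, 341 and 371 CPM in RUX+CSA pools, 441, 418 and 555 CPM in CSA pools, 224, 202 and 202 CPM in RUX pools, and 226, 213 and 183 CPM in untreated pools. The groups with and without CSA did not overlap, and CSA pools were all above RUX+CSA pools. The log2 difference was 0.97 (SE 0.08, adjusted p = 2.05e-05 by edgeR), and it was 0.90 to 1.00 with each library left out. Lgals1, which encodes galectin-1, a galectin known to restrain T cells, measured 995, 974 and 901 CPM in RUX+CSA pools, 916, 901 and 892 CPM in CSA pools, 639, 805 and 535 CPM in RUX pools, and 688, 553 and 566 CPM in untreated pools. Here too the groups with and without CSA did not overlap (log2 0.56, SE 0.09, adjusted p = 0.00275 by edgeR).

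Of the 4 S100 genes, S100a6 and S100a4 rose and S100a10 and S100a11 were not called. S100a6, a calcium sensor of dividing cells, measured 521, 518 and 464 CPM in RUX+CSA pools, 551, 523 and 601 CPM in CSA pools, 379, 377 and 341 CPM in RUX pools, and 313, 387 and 294 CPM in untreated pools. S100a4, which binds non-muscle myosin, measured 487, 467 and 434 CPM in RUX+CSA pools, 471, 467 and 529 CPM in CSA pools, 395, 350.2 and 336 CPM in RUX pools, and 336, 412 and 289.8 CPM in untreated pools. For both genes every pool with CSA was above every pool without it. The log2 difference was 0.60 for S100a6 (SE 0.08, adjusted p = 0.000431) and 0.43 for S100a4 (SE 0.08, adjusted p = 0.00802, both by edgeR). S100a10 ranged from 545 to 648 CPM with CSA and from 516 to 638 CPM without it, and S100a11 from 481 to 642 CPM with CSA and from 427 to 609 CPM without it. These ranges overlapped, and the log2 differences were 0.07 and 0.09 (SE 0.07 and 0.09, adjusted p = 0.617 and 0.605 by edgeR).

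The annexins were less even. Anxa2, which joins membranes to actin as a partner of S100a10, measured 999.8, 873 and 817 CPM in RUX+CSA pools, 821, 708 and 651 CPM in CSA pools, 631, 781 and 539 CPM in RUX pools, and 685, 477 and 606 CPM in untreated pools. The ranges with and without CSA overlapped (log2 0.38, SE 0.11, adjusted p = 0.0454 by edgeR). Leaving out any of 10 of the 12 libraries, all but untreated 13 and RUX 20, ended this call, with edgeR adjusted p-values up to 0.117. Anxa1, an annexin that acts on leukocytes through formyl peptide receptors and is abundant in neutrophils, measured 747, 896 and 716 CPM in RUX+CSA pools, 1174, 497 and 894 CPM in CSA pools, 632, 337 and 450.3 CPM in RUX pools, and 174, 73.6 and 677 CPM in untreated pools. Its ranges overlapped and it was not called (log2 1.10, SE 0.51, adjusted p = 0.247 by edgeR). Without untreated 15, which had the highest Anxa1 of the untreated pools, the log2 difference was 1.76 (adjusted p = 0.0191).

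Vim was not called in CD4 cells. It ranged from 415 to 611 CPM with CSA and from 453 to 633 CPM without it, and the ranges overlapped (log2 -0.14, SE 0.09, adjusted p = 0.383 by edgeR).

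**Figure D2:**
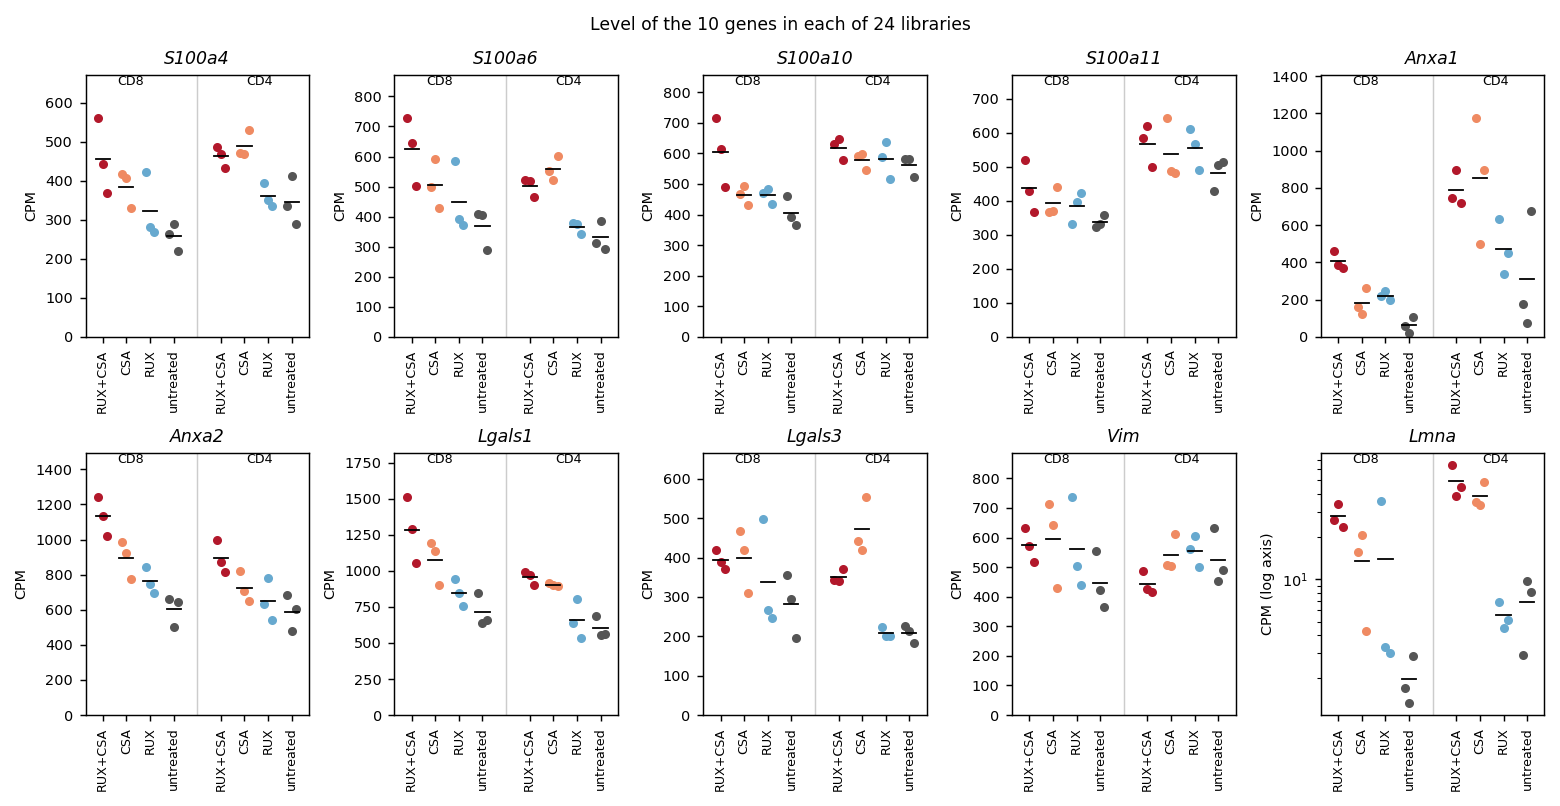
CPM of each of the 10 genes in the 24 libraries (points) with the group mean of 3 pools (bars), in the order RUX+CSA, CSA, RUX and untreated for CD8 (left of each panel) and CD4 (right); the Lmna axis is logarithmic. In CD4 cells the RUX+CSA and CSA points of Lmna, 33.3 to 64.6 CPM, lie above the RUX and untreated points, 2.90 to 9.63 CPM; in CD8 cells 1 CSA point and 1 RUX point lie away from their groups.

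Promoter sequences are shown for the 3 genes with the lowest adjusted p in this comparison, Lmna with both of its starts, since they rose together and a start cannot be read from gene counts. Each runs from 250 bases before to 50 bases after the start, 5′ to 3′ on the gene's strand, from RefSeq on GRCm38.p6 (mm10). Capitals mark matches, on either strand, to the AP-1 motif, searched as TGANTCA. They also mark matches on either strand to the core of the NFAT motif, which was searched as GGAAA. The remaining capitals mark the Sp1 box, for which the letters searched were GGGCGG.
Lmna, first start, chr3:88503303-88503602, minus strand: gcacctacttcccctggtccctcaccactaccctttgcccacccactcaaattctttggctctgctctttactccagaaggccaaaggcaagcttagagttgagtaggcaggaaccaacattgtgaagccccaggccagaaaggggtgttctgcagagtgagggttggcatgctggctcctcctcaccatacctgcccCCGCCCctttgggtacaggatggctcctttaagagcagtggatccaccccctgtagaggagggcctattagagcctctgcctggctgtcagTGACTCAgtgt
Lmna, second start, chr3:88493263-88493562, minus strand: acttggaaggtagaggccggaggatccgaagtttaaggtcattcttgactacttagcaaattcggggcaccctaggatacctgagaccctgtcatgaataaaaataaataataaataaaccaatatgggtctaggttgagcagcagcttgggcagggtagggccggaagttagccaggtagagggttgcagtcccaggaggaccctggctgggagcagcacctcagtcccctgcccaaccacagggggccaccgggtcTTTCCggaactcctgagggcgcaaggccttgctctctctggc
Lgals3, chr14:47373610-47373909, plus strand: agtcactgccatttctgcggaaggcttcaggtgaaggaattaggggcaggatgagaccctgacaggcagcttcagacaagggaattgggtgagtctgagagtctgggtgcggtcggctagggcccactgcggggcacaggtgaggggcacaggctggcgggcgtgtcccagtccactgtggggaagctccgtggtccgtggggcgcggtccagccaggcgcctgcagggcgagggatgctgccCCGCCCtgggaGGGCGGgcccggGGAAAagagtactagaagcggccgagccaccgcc
S100a6, chr3:90612644-90612943, plus strand: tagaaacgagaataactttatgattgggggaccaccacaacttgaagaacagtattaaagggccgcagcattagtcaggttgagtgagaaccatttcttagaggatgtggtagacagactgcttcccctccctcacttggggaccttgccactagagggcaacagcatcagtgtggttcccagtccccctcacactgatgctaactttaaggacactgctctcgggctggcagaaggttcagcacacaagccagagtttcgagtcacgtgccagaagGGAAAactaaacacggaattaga

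None of these motifs was in all 4 windows. An NFAT core was present in the windows of Lgals3, S100a6 and the second Lmna start, and an AP-1 match only in that of the first Lmna start, 40 bases after the start. Over all 32851 promoter windows of the same length, 61.3% held an NFAT core, 7.81% an AP-1 match and 35.7% an Sp1 box, and no motif match overlapped another in these 4 windows. The 4 windows differ in base composition: the Lgals3 window was 67% G or C with 18 CG dinucleotides, against 56.3% and 1 for the first Lmna start, 54.7% and 7 for the second, and 49.3% and 6 for S100a6. A match is a description of the letters and was not tied to binding here.

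The members lie on 6 chromosomes of mm10, and 5 of them are on chromosome 3. S100a4 (chr3:90603770-90606045) and S100a6 (chr3:90612894-90614414) are neighbours on the plus strand, and S100a11 (chr3:93520496-93526288) and S100a10 (chr3:93555117-93564645) lie together further on. Lmna (chr3:88481148-88503352) is on the minus strand. The other members are Anxa1 (chr19:20373434-20390671), Anxa2 (chr9:69453683-69491785), Lgals1 (chr15:78926725-78930465), Lgals3 (chr14:47373860-47386167) and Vim (chr2:13574311-13582826). None of the 10 shares exon sequence with another gene of the count table's annotation.

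Against untreated pools alone, each regimen with CSA gave 4 calls, of the same 4 genes. In RUX+CSA against untreated CD4 cells (1.77% of genes called), Lmna was higher by log2 2.85 (SE 0.38, adjusted p = 0.00555), Lgals3 by 0.76 (adjusted p = 0.00555), Lgals1 by 0.67 (adjusted p = 0.0196) and S100a6 by 0.60 (adjusted p = 0.0143, all by edgeR). In CSA against untreated CD4 cells (1.48% called), Lgals3 was higher by log2 1.18 (adjusted p = 0.000247), Lmna by 2.51 (adjusted p = 0.00991), S100a6 by 0.75 (adjusted p = 0.00321) and Lgals1 by 0.58 (adjusted p = 0.0359, all by edgeR). The 2 comparisons share the untreated pools. Lgals1 and S100a6 lost their RUX+CSA call without RUX+CSA 22 or RUX+CSA 23 (edgeR adjusted p 0.0583 to 0.0956), and Lgals1 lost its CSA call without CSA 16, 17 or 18 or untreated 14 or 15 (0.0822 to 0.114). With the myeloid marker mean, described below, as a covariate, Lgals1 lost both calls (edgeR adjusted p = 0.0585 and 0.0983). S100a4 was called in both comparisons without untreated 14 (edgeR adjusted p = 0.0195 for RUX+CSA and 0.00962 for CSA), the untreated pool with the most S100a4, against 0.0818 and 0.0509 with all pools. It was also called in both with DESeq2 (adjusted p = 0.019 and 0.00363) and with the myeloid covariate in edgeR (0.0291 and 0.0135).

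Ruxolitinib alone was not followed by a call in CD4 cells. In RUX against untreated CD4 cells 0% of genes were called by edgeR, 548 genes had an unadjusted p under 0.05 and DESeq2 called 12. The members' log2 differences lay between -0.30 for Lmna and 0.62 for Anxa1, and the ranges of RUX and untreated pools overlapped for all 10. The share of all genes with overlapping ranges was not computed, so nothing is read from that count. Over the 6 CD4 pools with RUX, alone or with CSA, against the 6 without it, 0.25% of genes were called and no member was. Lmna differed by 0.02 (SE 0.26), S100a6 by -0.01 (SE 0.08), S100a4 by -0.01 (SE 0.08) and Lgals3 by -0.20 (SE 0.08, adjusted p = 0.411 by edgeR).

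**Figure D3:**
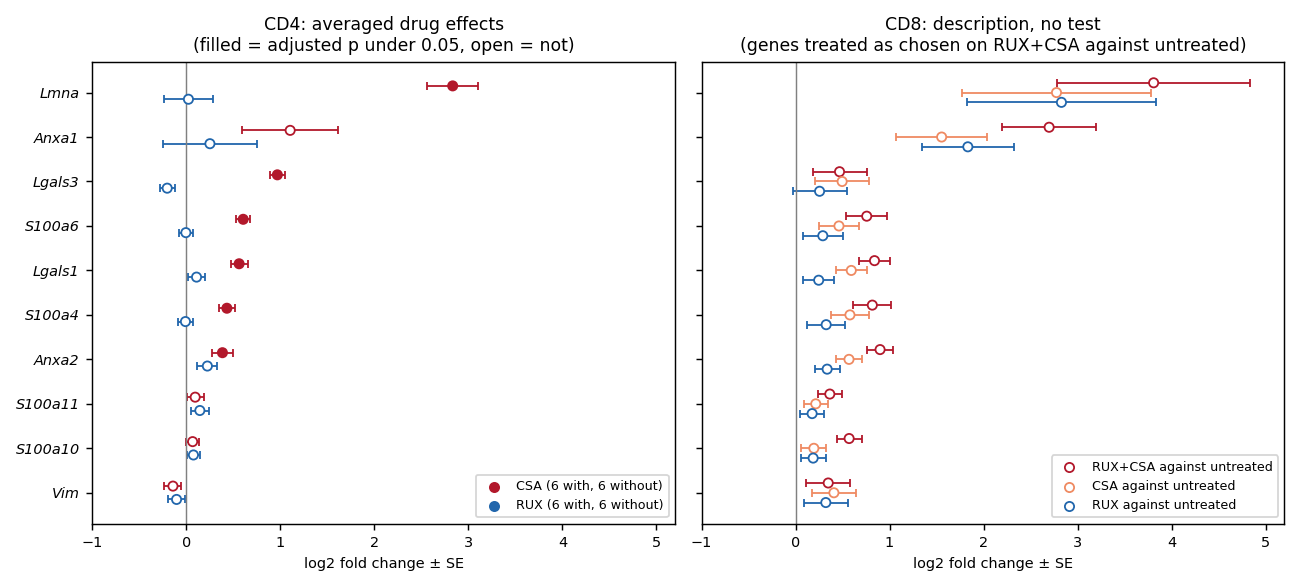
Log2 fold change ± SE of the 10 genes. Left, CD4 cells, CSA (6 pools with against 6 without, red) and RUX (6 with against 6 without, blue), filled where the adjusted p was under 0.05: Lmna, Lgals3, S100a6, Lgals1, S100a4 and Anxa2 are filled for CSA and none for RUX. Right, CD8 cells, each treatment against untreated, open because no test is given: all 10 points of RUX+CSA lie above 0, from 0.35 for Vim to 3.81 for Lmna.

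Relatives of the members were read in the same CD4 comparison of pools with and without CSA, where 7.16% of all genes tested were called. None of the 7 tested genes listed as other S100 genes was called, a list that also holds the S100 binding protein gene S100pbp. Its most abundant genes varied widely between CD4 libraries, S100a8 from 0.507 to 3274 CPM and S100a9 from 0.326 to 3066 CPM. S100a8 averaged 1677 CPM in RUX+CSA, 1792 in CSA, 1097 in RUX and 620 CPM in untreated pools. Among 7 other annexins Anxa5 (log2 0.26, adjusted p = 0.0229) and Anxa6 (0.28, adjusted p = 0.0383) rose and Anxa4 fell (-0.47, adjusted p = 0.0320, all by edgeR). Among 6 tested genes listed as other galectins, Lgals7 rose (1.45, with at most 8.04 CPM in a CD4 library). Lgals3bp of the same list, which encodes a secreted galectin-3 binding protein rather than a galectin, fell (-0.46, adjusted p = 0.00309 by edgeR). Whether the members differ from these relatives was not tested.

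Among genes of the nuclear lamina, Lmnb1 fell where Lmna rose. Lmnb1, the B-type lamin of most cells and high in dividing ones, measured 138, 86.5 and 107 CPM in RUX+CSA pools, 106, 110.2 and 72.2 CPM in CSA pools, 176, 309.7 and 160.3 CPM in RUX pools, and 339.5, 149 and 173 CPM in untreated pools. It fell with CSA (log2 -1.08, SE 0.26, adjusted p = 0.0405 by edgeR), with no overlap of the pools with and without CSA. Tmpo, a lamin-binding membrane protein gene, also fell (-0.53, adjusted p = 0.0171). The other 13 tested genes of the lamina and nuclear envelope were not called, Lmnb2 among them (-0.21, adjusted p = 0.324 by edgeR). Calls were thus 2 of 15 in this list, beside 7.16% of all genes tested.

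Of 16 tested binding partners and receptors of these proteins, none rose and 2 fell, while 7.16% of all genes tested were called. Nothing is read from so small a count. Cd7, a T cell surface protein known in human cells as a galectin-1 receptor, fell by 0.82 on the log2 scale (adjusted p = 0.0181 by edgeR), and Dysf, which had at most 4.60 CPM, was the other. Ahnak, a very large protein that binds S100a10 and Anxa2, differed by 0.51 (SE 0.17, adjusted p = 0.0947 by edgeR). Cd44, the hyaluronan receptor of memory T cells, measured 328, 386 and 336 CPM in RUX+CSA pools, 291, 316 and 369 CPM in CSA pools, 189, 219 and 225 CPM in RUX pools, and 213, 231 and 191 CPM in untreated pools, with no overlap (log2 0.68, adjusted p = 0.00024 by edgeR).

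Genes of both memory and naive T cells rose in the CD4 pools with CSA. In a list of 24 memory and effector T cell genes known to go with the members, 6 rose and 1 fell, led by Ccl5 (log2 0.96, adjusted p = 5.71e-05), Cd44 and Emp3 (0.58, adjusted p = 0.00176). Of 15 naive T cell genes 5 rose and none fell, led by Bach2 (2.00, adjusted p = 4.5e-05), Foxp1 (0.66) and Satb1 (1.15). Of 25 tested actin and intermediate filament genes 6 rose and none fell, led by Zyx (0.65, adjusted p = 0.00015), Plec (0.65) and Tmsb10 (0.38). The list medians were 0.29, 0.65 and 0.10, against -0.01 over all genes. The share called over all genes tested was 7.16%, and whether these lists exceed it was not tested.

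Markers of other marrow cells also moved in the CD4 libraries. The 18 neutrophil markers summed to 6195 to 7790.4 CPM in RUX+CSA pools, 2644 to 12355 CPM in CSA pools, 2845 to 5335 CPM in RUX pools, and 96.2 to 6600.2 CPM in untreated pools, with 1 of the 18, Mmp9, called higher with CSA and a median log2 difference of 1.31. The 18 macrophage and monocyte markers summed to 1201 to 3051 CPM with CSA and 849 to 1933 CPM without it, with 4 called lower and none higher. The 13 erythroid markers summed to 185 to 517 CPM with CSA and 52.4 to 129.5 CPM without it, with no overlap, 2 called higher and the haemoglobin genes Hba-a1, Hbb-bs and Hbb-bt at 0 in all 12 libraries. NK cell markers, 2 of 5 tested called higher, summed to 188 to 252 CPM with CSA and 85.9 to 140.2 CPM without it. Of dendritic cell markers 3 of 7 tested were called higher with CSA (median log2 difference 0.85), and of B cell markers 3 of 9 (2.05). Of basophil and mast cell markers 2 of 8 were called higher (2.54). In these 3 lists no marker was called lower, and no platelet or stroma marker was called. Over all genes tested, 7.16% were called. The part of erythroid, NK, dendritic, B, basophil or mast cell RNA in the members' difference was not tested.

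Neutrophil marker sums of 2 pools are given beside Lmna and Lgals3, chosen after their values were seen. The pool untreated 15 held 6600.2 CPM of neutrophil markers, a level within that of the RUX+CSA pools, with Lmna at 8.06 CPM and Lgals3 at 183 CPM. The pool CSA 17 held 2644 CPM, less than any RUX pool, with Lmna at 33.3 CPM and Lgals3 at 418 CPM. These 2 pools are no test, and the part of neutrophil RNA in the difference of either gene was not tested. With the mean of the neutrophil and macrophage markers as a covariate, the log2 difference with CSA was 2.90 for Lmna (adjusted p = 0.000894), 1.01 for Lgals3 (6.39e-05), 0.69 for S100a6 (0.000283), 0.56 for Lgals1 (0.0107) and 0.55 for S100a4 (0.00212, all adjusted p by edgeR). In that fit Anxa2 was no longer called (0.29, adjusted p = 0.189) and Anxa1 was (0.50, adjusted p = 0.0233 by edgeR). The median log2 difference with CSA was 1.31 for the neutrophil and -0.56 for the macrophage and monocyte markers. The covariate averages both lists, so it cannot adjust for each cell type apart.

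Anxa1 followed the neutrophil markers in both cell types. Across the 12 CD4 libraries Pearson's r of its log2 CPM with the mean log2 CPM of the 18 markers was 0.949 (Spearman's rho 0.951), and 0.917 without untreated 13 and untreated 14. Across the 12 CD8 libraries r was 0.958 (rho 0.965), and 0.940 without untreated 1 and untreated 2. The points share treatment groups and library scaling, so these values are descriptive. For Lgals3 the r was 0.177 in CD8 and 0.407 in CD4 libraries, for S100a4 0.388 and 0.172, for Vim 0.276 and 0.027, and for Lmna 0.602 and 0.402. In the same order it was 0.760 and 0.652 for Anxa2, 0.600 and 0.530 for Lgals1, and 0.586 and 0.410 for S100a11. S100a10 had 0.513 and 0.044, and S100a6 0.329 and 0.338. Spearman's rho in CD4 libraries was 0.671 for Lmna, 0.657 for Lgals1, 0.650 for Anxa2 and 0.608 for S100a11. This rho was 0.483 for S100a4, 0.455 for S100a6, 0.434 for Lgals3, 0.189 for S100a10 and -0.378 for Vim.

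**Figure D4:**
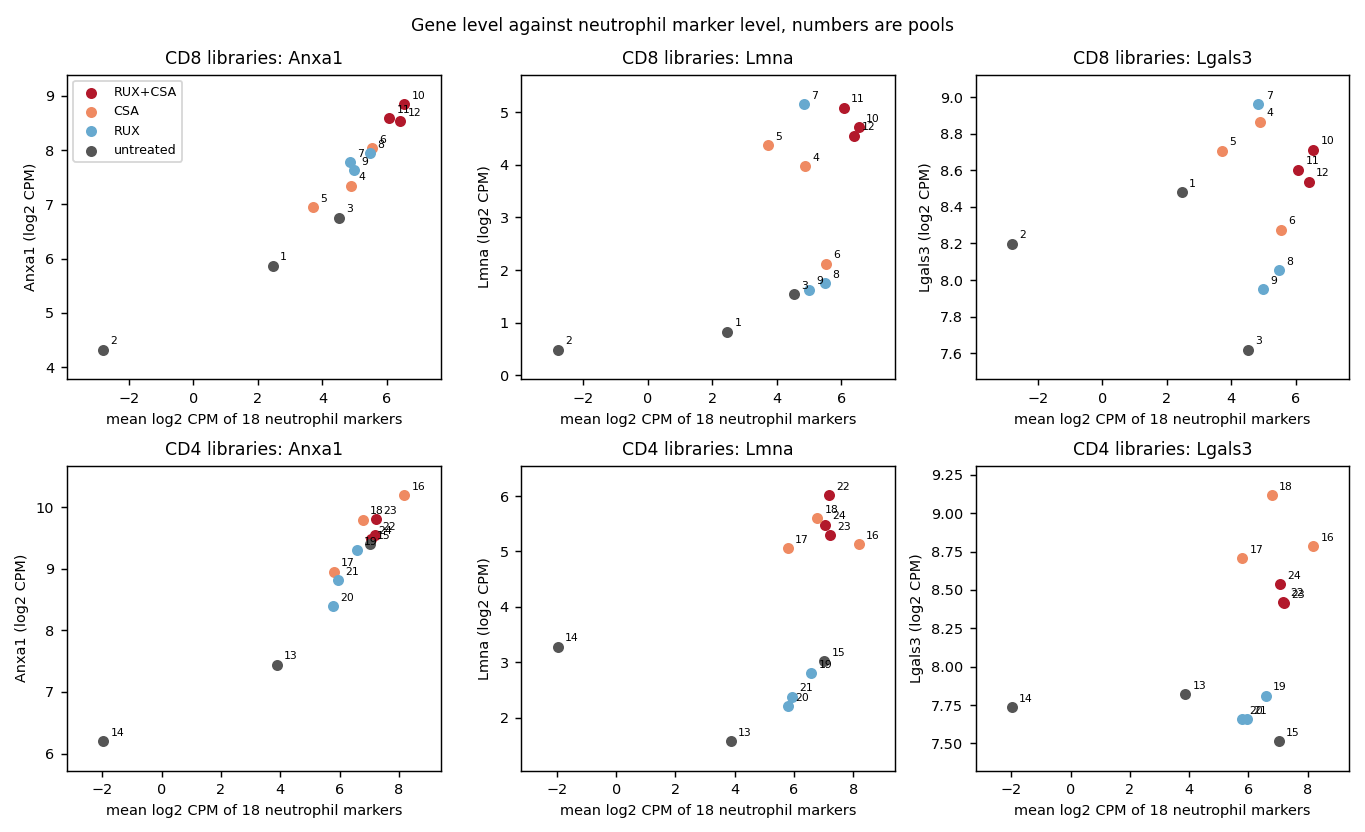
Log2 CPM of Anxa1, Lmna and Lgals3 against the mean log2 CPM of 18 neutrophil markers in 12 CD8 (top) and 12 CD4 libraries (bottom), coloured by treatment and numbered by pool. Anxa1 lies along a single line in both rows (r 0.958 and 0.949); Lmna and Lgals3 of the CD4 pools with CSA lie above those of all pools without CSA, from 33.3 against at most 9.63 CPM for Lmna and from 341 against at most 226 CPM for Lgals3.

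In CD8 cells all 10 genes had a higher mean in RUX+CSA than in untreated pools, the comparison they are treated as chosen on. Of all genes 15.7% were called there, and 7 of the 10 members, and nothing is read from that count. Lmna measured 26.1, 33.9 and 23.4 CPM in RUX+CSA pools, 15.6, 20.6 and 4.28 CPM in CSA pools, 35.6, 3.29 and 3.00 CPM in RUX pools, and 1.69, 1.32 and 2.84 CPM in untreated pools. The low CSA pool was CSA 6 and the high RUX pool was RUX 7, and each lay outside the range of the other pools of its own group. Anxa1 measured 461, 383 and 369 CPM in RUX+CSA pools, 162, 123 and 261 CPM in CSA pools, 219.8, 246 and 197 CPM in RUX pools, and 58.2, 19.9 and 108 CPM in untreated pools. The RUX+CSA pools were the 3 highest for Anxa1 and also for neutrophil markers, which summed to 3467 to 4430.1 CPM there, 668 to 2487 CPM in CSA, 1326 to 2317 CPM in RUX and 12.7 to 1188 CPM in untreated pools.

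For the other 8 genes the CD8 means lay closer together. Anxa2 averaged 1132 CPM in RUX+CSA, 894 in CSA, 762 in RUX and 603 CPM in untreated pools, and Lgals1 1287, 1077, 849 and 714 CPM in the same order. S100a4 averaged 457, 385, 323 and 257 CPM, S100a6 625, 506, 449.98 and 367 CPM, S100a10 606, 464, 463 and 406 CPM, and S100a11 438, 393, 383 and 338 CPM. Neighbouring groups overlapped in all of these, except that RUX+CSA lay above CSA and RUX above untreated for Anxa2. Lgals3 averaged 393, 398, 337 and 282 CPM and Vim 574, 594, 561 and 448 CPM, and for these 2 genes RUX+CSA pools did not have the highest mean. The RUX means rested in part on RUX 7: without CSA 6 and RUX 7 the log2 fold change of RUX against untreated was 0.08 for S100a4, 0.04 for S100a6, 0.06 for Vim and -0.15 for Lgals3, against 0.33, 0.29, 0.32 and 0.26 for the same genes with all libraries. As log2 fold changes with SE, RUX+CSA against untreated gave 3.81 (1.03) for Lmna, 2.70 (0.50) for Anxa1, 0.90 (0.13) for Anxa2, 0.84 (0.16) for Lgals1, 0.82 (0.20) for S100a4 and 0.76 (0.22) for S100a6. With the myeloid marker mean as a covariate Anxa1 had 1.11, Lmna 3.79, Anxa2 0.70, S100a4 1.16 and S100a6 1.19.

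For each drug alone against untreated in CD8 cells, 0% of genes were called by edgeR in both comparisons, with 1233 genes for CSA and 744 for RUX at an unadjusted p under 0.05, and 66 and 78 genes by DESeq2. These comparisons share the untreated pools with that of RUX+CSA. The members' median log2 fold change was 0.53 for CSA and 0.31 for RUX, against 0.79 for RUX+CSA, all relative to untreated. Lmna had 2.78 (SE 1.00) for CSA and 2.83 (SE 1.00) for RUX, and without CSA 6 and RUX 7 these were 3.19 for CSA and 0.66 for RUX. Without both libraries the members' median was 0.65 for CSA and 0.16 for RUX.

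RUX and CSA were also set against each other in CD8 cells. With all 6 libraries 0% of genes were called by edgeR, 230 genes had an unadjusted p under 0.05, and DESeq2 called 0. Lmna differed by 0.05 (SE 0.89) and Lgals1 by -0.35 (SE 0.16, unadjusted p = 0.0544). Without CSA 6 and RUX 7 edgeR called 457 genes, and Lmna was lower in RUX than in CSA pools by log2 -2.53 (adjusted p = 0.00144). Those 2 libraries were left out because they stood apart in earlier results of the same data, so this value is no independent test.

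CD8 and CD4 cells differed in 6 of the 10 genes when averaged over the 4 treatments. In that comparison of 12 CD8 with 12 CD4 libraries 53.8% of genes were called by edgeR, so 6 of 10 is near the share over all genes. The CD8 libraries include the RUX+CSA and untreated pools that the members are treated as chosen on, so the adjusted p-values here are descriptive. Lgals1 (log2 0.32, SE 0.08, adjusted p = 0.0011) and Anxa2 (0.22, SE 0.07, adjusted p = 0.0153) were higher in CD8 cells. Anxa1 (-1.65, SE 0.32, adjusted p = 0.000323), S100a11 (-0.47, SE 0.07, adjusted p = 8.17e-06), S100a10 (-0.29, SE 0.06, adjusted p = 0.000273) and S100a4 (-0.24, SE 0.08, adjusted p = 0.0214, all by edgeR) were lower in CD8 cells. Of the known pairs, Anxa1 and S100a11 were both lower in CD8 cells, and Anxa2 was higher while S100a10 was lower. All 6 calls held with each of the 24 libraries left out and without CSA 6 and RUX 7, and Anxa1 was -0.68 with the myeloid marker mean as a covariate. Lmna was not called (-0.71, SE 0.37, adjusted p = 0.115), and was lower in CD8 cells without RUX 7 (-1.24, adjusted p = 0.000346 by edgeR). RUX 7 is the CD8 library with the most Lmna, so the value without it is no independent test. Of the 18 neutrophil markers, 14 were called lower in CD8 libraries and 0 higher, with a median log2 difference of -1.643. Of the 18 macrophage and monocyte markers 13 were lower and 2 higher (median -1.715). The part of RNA from such cells in the members' differences between CD8 and CD4 libraries was not tested.

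Within single drugs the comparison had fewer pools. The neutrophil markers' median log2 difference, CD8 against CD4, was -2.379 under CSA and -1.035 under RUX. Under CSA (26.3% of genes called), Anxa1 (-2.23, adjusted p = 0.0175), S100a11 (-0.45, adjusted p = 0.0192) and S100a10 (-0.31, adjusted p = 0.0472, all by edgeR) were lower in CD8 cells, and leaving out CSA 16, CSA 4 or CSA 5 ended all 3 calls, while that of S100a10 also ended with each of the other 3 libraries left out. Under RUX (17.9% called), S100a11 was lower (-0.54, adjusted p = 0.0094) and Lgals3 higher in CD8 cells (0.69, adjusted p = 0.0391). Without RUX 7 the Lgals3 difference was 0.29 (adjusted p = 0.31 by edgeR), and its call also ended without RUX 19, 20 or 21. Lmna was not called under either drug (-1.53 under CSA, adjusted p = 0.127, and 1.33 under RUX, adjusted p = 0.234), and without CSA 6 and RUX 7 it was lower in CD8 cells under CSA (-1.10, adjusted p = 0.0391) and -0.81 under RUX (adjusted p = 0.189, all by edgeR). Both libraries stood apart in Lmna itself, so the Lmna values without them are no independent test. The S100a11 call under RUX ended without RUX 7 or RUX 19 (edgeR adjusted p = 0.0509 and 0.0565).

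Whether RUX against CSA differed between CD8 and CD4 cells was tested as an interaction. Of all genes 0% were called by edgeR, with 1208 at an unadjusted p under 0.05 and 35 called by DESeq2. Lmna had an interaction of log2 2.86 (SE 1.03, adjusted p = 0.503), and Lgals3 of 0.93 (SE 0.32, adjusted p = 0.494 by edgeR). Without CSA 6 and RUX 7 these were 0.29 for Lmna and 0.39 for Lgals3. No member was called.

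Levels of most of the 10 genes were positively correlated across libraries of the same cell type. In CD8, S100a4 and S100a6 correlated at r = 0.970 and Anxa2 and Lgals1 at 0.961, and the median r of a gene with the other 9 ran from 0.460 for S100a11 to 0.847 for S100a4. In CD4, S100a4 and S100a6 again correlated at 0.969, and Lgals3 correlated at 0.935 with S100a6, 0.894 with S100a4 and 0.865 with Lmna. Vim was the exception in CD4, with an r of -0.478 to -0.091 with the other 9 genes. These values are over 12 libraries each, which share treatments and scaling, and carry no test. The CD8 libraries also include the RUX+CSA and untreated pools that the members are treated as chosen on. Such a choice can raise r in CD8. Whether the cell types differ was not tested.

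**Figure D5:**
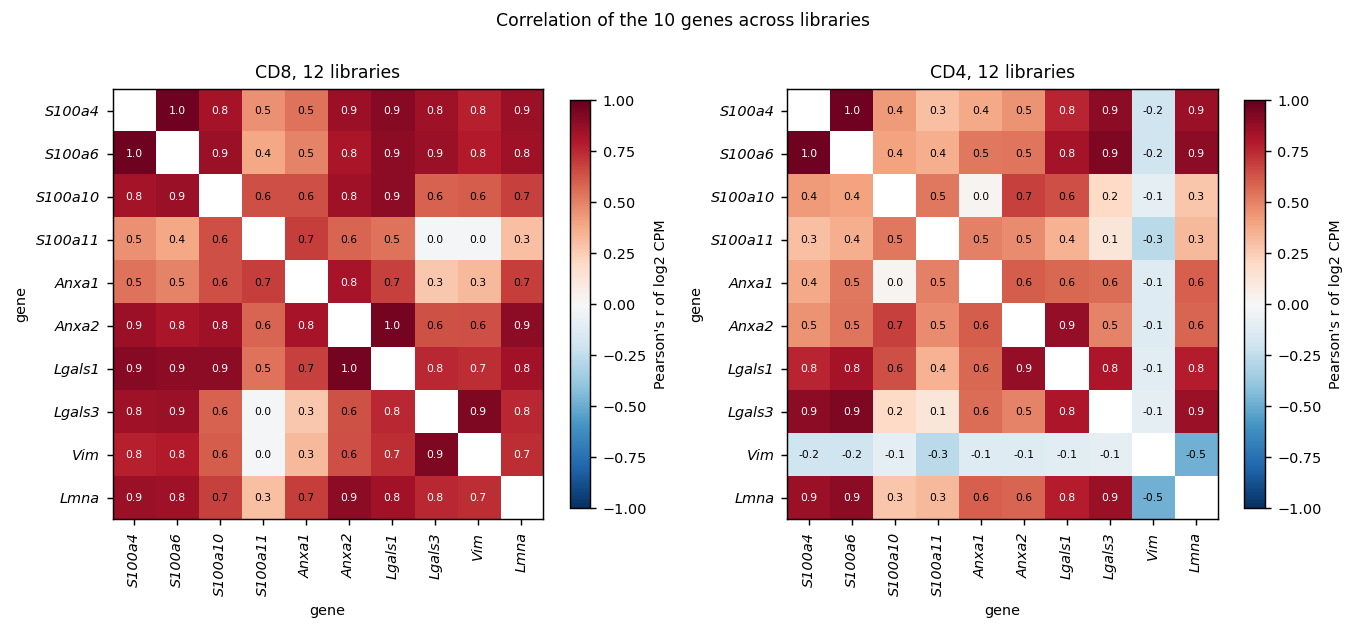
Pearson's r of log2 CPM between the 10 genes across 12 CD8 libraries (left) and 12 CD4 libraries (right), red positive and blue negative. S100a4 with S100a6 is near 1 in both panels, and the Vim row is red in CD8 apart from S100a11 and blue in CD4, where its r runs from -0.478 to -0.091.

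Genes outside the group whose pattern was most like the mean of the 10 were named as the 5 with the highest r of log2 CPM. Among 8898 CD8 genes they were Vasp (0.984), which extends actin filaments, Arpc2 (0.982), a subunit of the Arp2/3 actin nucleator, Abracl (0.980), Nt5c (0.976) and Cmpk1 (0.971). Among 9068 CD4 genes they were Emp3 (0.947), Zyx (0.939), a protein of actin-anchoring sites, Sh2b3 (0.938), an adaptor that restrains cytokine signalling, Ctse (0.938), which encodes cathepsin E, and Tspan2 (0.933). Each r is over 12 libraries. The mean was of log2 CPM centred by gene but not scaled, so Lmna and Anxa1, which range most widely, weigh most in it. The CD8 ranking also uses the RUX+CSA and untreated pools that the members are treated as chosen on.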

How the data were processed

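RNA was measured in 24 libraries of sorted marrow T cells, made with the SMART-Seq mRNA LP kit per the labels' protocols. The deposited table holds raw read pair counts per gene, counted with featureCounts 2.0.3 on exons without a strand option per the file headers. Alignment with STAR to mm10 is given in the submitters' processing notes, without a version. The total was 16912085 to 34550183 read pairs. From these counts, CPM were computed with trimmed mean of M values (TMM) scaling, and genes were tested with edgeR 4.0.16 (quasi-likelihood, robust, filterByExpr, two-sided, Benjamini-Hochberg threshold 0.05) in R 4.3.3. CD8 and CD4 libraries were fitted apart (12684 and 13175 genes), and all 24 together for comparisons of cell types (13476 genes). The scripts were tested on simulated data. Members and lists were chosen with earlier results of these data known. In each list at most 3 genes were named, by adjusted p, besides those discussed as relatives or partners. Likeness was ranked over genes whose mean log2 CPM reached 3. Alternatives were DESeq2 1.42.0, relative log expression size factors, no filter, the myeloid marker mean as a covariate, each library left out, and both CD8 libraries that stood apart left out. Motifs were searched in RefSeq promoters, held for 8 of the 10 members.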

Additional observations from a re-analysis of the deposited data

How the results depend on the processing

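No paired analysis was made. CD8 pools are numbered 1 to 12 and CD4 pools 13 to 24, and these numbers do not show whether pools share mice. Over the values of single members, 1584 alternatives kept the direction and the side of the threshold or, where untested, stayed within the replicate SD. Among the latter, Lgals3 in CD8 RUX against untreated turned to -0.15 without RUX 7. A call was lost in 47 and gained in 31, 11 untested values moved, and 67 turned in direction, 1 of them with a call: Lmna in CD8 RUX against CSA, 0.05 with all libraries and -2.53 without CSA 6 and RUX 7.

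The other 66 turned without a call on either side. Without CSA 6 and RUX 7 they were S100a11 in CD8 RUX against CSA (0.14), Lmna (-0.81) and Vim (-0.24) in CD8 against CD4 under RUX, and Lgals1 (-0.090), S100a11 (0.099) and S100a4 (-0.15) in the interaction. With the myeloid covariate they were S100a10 in CD8 RUX against CSA (0.0018) and in the interaction (0.018), and S100a4 (0.039) and S100a6 (0.031) for RUX in CD4. S100a10 in the interaction was 0.0014 with DESeq2 and 0.0015 with relative log expression factors. The rest turned with single libraries left out, over these log2 ranges. In CD8 RUX against CSA the range was Lmna -2.11 to 0.54, S100a10 -0.067 to 0.049, S100a11 -0.11 to 0.048 and Vim -0.35 to 0.064. In CD4 CSA against untreated the range was S100a10 -0.010 to 0.080, S100a11 -0.0024 to 0.23 and Vim -0.055 to 0.20. In CD4 RUX against untreated the range was Anxa2 -0.012 to 0.26, Lgals1 -0.039 to 0.26, Lgals3 -0.070 to 0.080, Lmna -0.68 to 0.044, S100a10 -0.025 to 0.13, S100a4 -0.054 to 0.20 and Vim -0.016 to 0.24. In CD4 pools with against without RUX the range was Lmna -0.17 to 0.19, S100a4 -0.067 to 0.062 and S100a6 -0.046 to 0.057. In CD8 against CD4 under CSA the range was Vim -0.026 to 0.32. In CD8 against CD4 under RUX the range was Lmna -0.81 to 1.81 and Vim -0.24 to 0.16. In the interaction the range was Anxa2 -0.18 to 0.076, Lgals1 -0.016 to 0.27, S100a10 -0.087 to 0.052, S100a11 -0.24 to 0.0076, S100a4 -0.048 to 0.31 and Vim -0.37 to 0.031.

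With DESeq2 the genes called were 66 for CD8 CSA and 78 for CD8 RUX against untreated, and in CD4 883 for RUX+CSA, 655 for CSA and 12 for RUX against untreated, 1674 for pools with against without CSA, 210 for RUX, and 35 for the interaction. Members lower in CD8 under RUX were 2 with DESeq2 and 2 with relative log expression factors. With the myeloid covariate the genes called were 1 for CD8 RUX+CSA, 131 for CD4 RUX+CSA, 1 for CD4 RUX and 3 for the interaction. That fit gave 1 member higher in CD8 under CSA, and 0 higher and 3 lower under RUX. Without the filter 2 genes were called for CD8 RUX and 69 for RUX in CD4, and 0 members were higher in CD8 under RUX. Without CSA 6 and RUX 7 the genes called were 3893 for CD8 RUX+CSA, 616 for CSA, and 457 for RUX against CSA, where 1 member was lower, and 0 members were higher in CD8 under RUX. The causes were not tested.

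Leaving out each library in turn gave 426 to 1807 genes for CD8 RUX+CSA, 0 to 1 for CSA and 0 to 9 for RUX against untreated. In CD4 it gave 58 to 293 genes and 2 to 5 members for RUX+CSA, 48 to 204 genes and 3 to 4 members for CSA, and 0 to 15 genes for RUX, all against untreated. It gave 456 to 1209 genes and 5 to 6 members for pools with against without CSA, and 0 to 88 genes for RUX. For CD8 against CD4 it gave 6856 to 7395 genes, 2 to 3 members higher and 4 to 5 lower over the 4 treatments. Under CSA it gave 2341 to 2985 genes and 0 to 2 members lower, and under RUX 1491 to 2167 genes, 0 to 1 member higher and 0 to 2 lower. The interaction had 0 to 1 genes.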
